A study of Pan paniscus with 11 samples.

Results

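APOE, the gene of apolipoprotein E, was described across cultured fibroblasts of the bonobo (Pan paniscus). It was chosen by its measured spread between lines, so that spread and the order of its levels are given as a description without a test. Sex, age and array quality, which the choice did not use, were tested against it. The array carried 1 probe set for APOE (608_at) among 12625, and APOE was 1 of 5370 genes measured well enough to compare. By that same measure APOE was not quite the most variable gene: RPS4Y1, a Y-linked gene, had a slightly larger spread.

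The lines came from 10 animals labelled normal, 5 female and 5 male, with 1 array for the standard culture of each line. The females were line 1 (KB_4512, 9 years), line 2 (KB_6884, 2 years), line 3 (KB_7033, 4 years), line 4 (KB_7189, 20 years) and line 5 (KB_8024, 20 years). The males were line 1 (KB_10025, 4 years), line 2 (KB_5275, 2 years), line 3 (KB_5828, 12 years), line 4 (KB_7998, 17 years) and line 5 (KB_8025, 19 years). For male line 1 there was also a culture taken at 50% confluence, that is, with 50% of the growth surface covered. How confluent the standard cultures were is not given in the labels. Lines were numbered within each sex by accession, so equal numbers do not pair animals.

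Apolipoprotein E is a secreted protein that coats lipoprotein particles and carries cholesterol and other lipids between cells. It binds receptors of the LDL receptor family and heparan sulfate chains at the cell surface, and its transcription is known to respond to the sterol-sensing LXR receptors. Liver, macrophages and astrocytes are its best-known sources, and skin fibroblasts also make it.

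Values are array intensities on a linear scale, 1 number per probe set, with a floor of 100 below which no level can be read. Trimmed array means lay between 408 and 423, and 52.1% to 60.9% of probe sets per array were above the floor. No arrays were identical. Of the fibroblast identity list, all 19 genes with a probe set exceeded the floor in every culture. Male line 4 had the highest 3' to 5' ratio of ACTB, 2.27, which serves as a sign of RNA integrity. The ribosomal RNA control read 2611 in the 50% confluence culture and 313 in male line 4, against 171 in male line 2 and 100 in the 8 other arrays.

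APOE ran from the floor to the level of the most strongly expressed genes. Female line 4 had an intensity of 8649, higher than 98.8% of all probe sets on that array. Male line 5 had 2357, above 94.7% of its probe sets, and male line 1 had 2010, above 93.9%. These 3 lines stood apart from the others.

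The remaining lines had far lower values. Female line 2 had 600, female line 1 had 372, male line 4 had 309 and male line 2 had 283. Female line 5 had 176, while male line 3 and female line 3 were at the floor of 100, so their level is known only as an upper bound. The highest line was therefore at least 86.5-fold above the lowest lines.

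**Figure D1:**
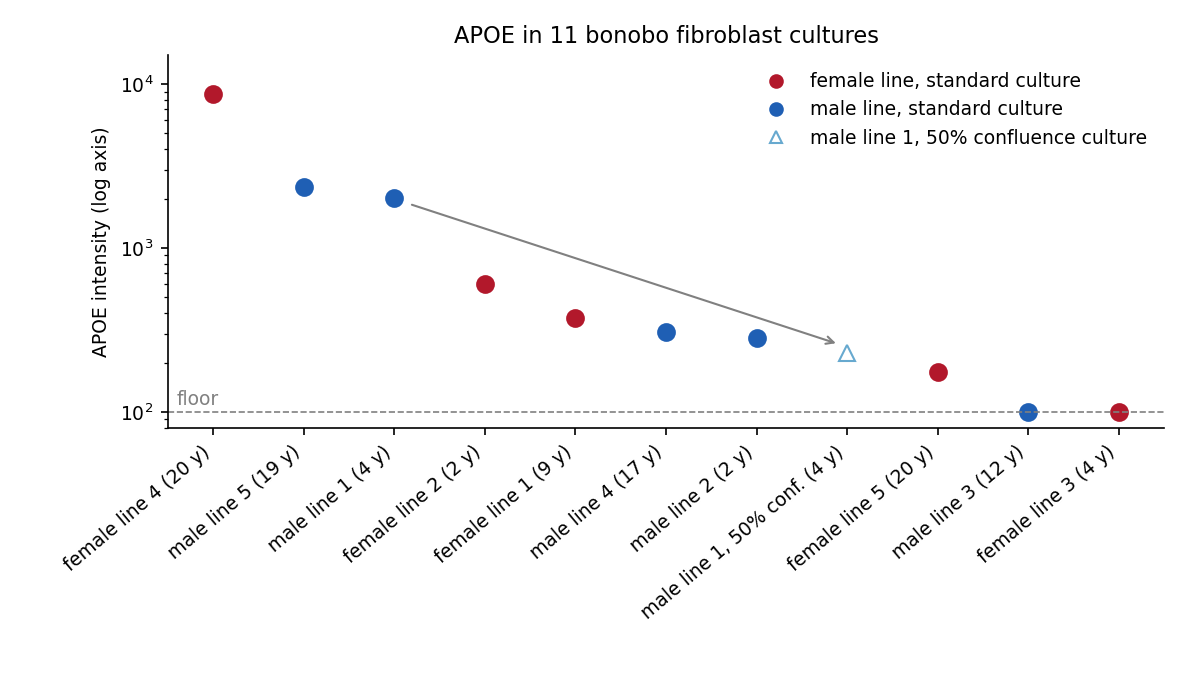
APOE intensity (log axis) in each of the 11 cultures in order of level, with female lines in red, male lines in blue and the 50% confluence culture of male line 1 as an open triangle. Female line 4 (8649), male line 5 (2357) and male line 1 (2010) lie above 600, and the arrow joins the 2 cultures of male line 1 (2010 and 230).

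In the order of levels, the widest gaps were the 3.67-fold step from female line 4 to male line 5 and the 3.35-fold step from male line 1 to female line 2. Between the other neighbours above the floor the steps among standard lines were smaller: male line 5 was 1.17-fold above male line 1, and male line 4 was 1.09-fold above male line 2. Each line had 1 standard culture, so no spread between cultures of a line is known, and neighbours in this order cannot be called different. In bulk RNA, fewer cells that make a transcript and less of it per cell cannot be told apart.

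Each sex held lines at both ends. The female lines ran from 100 to 8649 with a median of 372, and the male lines from 100 to 2357 with a median of 309. The mean log2 intensity was 8.99 ± 2.49 (SD, n = 5) in females and 9.05 ± 1.97 (SD, n = 5) in males, so the male range lay within the female range. In limma's fit of sex and age together, the male minus female difference was 0.07 ± 1.03 (SE) on the log2 scale, with a 95% interval from -2.13 to 2.28 and a Benjamini-Hochberg adjusted p of 1. Over all probe sets, 2 of 7333 (0.0273%) passed for sex. An exact two-sided permutation test of the means gave p = 0.992, where the smallest p this design allows is 0.00794. The sign of the difference turned without male line 1 (-0.61), female line 3 (-0.44), female line 5 (-0.62) or male line 5 (-0.38).

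Animals of the same age differed widely. At 20 years female line 4 had 8649 and female line 5 had 176, a 49.1-fold difference within 1 sex. At 4 years male line 1 had 2010 and female line 3 was at the floor, which puts them at least 20.1-fold apart. At 2 years the values were 600 in female line 2 and 283 in male line 2, a 2.12-fold difference.

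The age slope of APOE was 0.82 ± 0.71 (SE) log2 per 10 years, with a 95% interval from -0.70 to 2.33 and a limma adjusted p of 0.999. Without female line 4 it was -0.07. For age, 0 of 7333 probe sets passed (0%) in limma, with 251 at an unadjusted p under 0.05 where chance gives 367. Across the 10 lines, age and log2 APOE correlated with r = 0.29 (permutation p = 0.404) and rho = 0.21 (permutation p = 0.561). Without female lines 4 and 5 the r was 0.18.

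Measures of array quality were set against APOE in the same way, giving 3 relations with age. The ACTB 3' to 5' ratio had r = -0.12 (permutation p = 0.752) and rho = -0.08 (permutation p = 0.83), and r = -0.17 without male lines 2 and 4. The percent of probe sets above the floor had r = -0.13 (permutation p = 0.712) and rho = -0.30 (permutation p = 0.388), and r = -0.21 without female line 1 and male line 4. Adjusted over the 3 relations, all p were 0.752 for r and 0.83 for rho.

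The spread that chose APOE was an SD of 2.12 log2 over the 10 lines, against a median of 0.43 over 5370 genes. An SD over 1 was found for 121 genes and over 2 for 2 genes, RPS4Y1 (2.13) and APOE. Next came MYH11, smooth muscle myosin (1.96), MMP1, interstitial collagenase (1.91), HOXC6, a positional homeobox gene (1.73), EPB41L3, a membrane skeleton protein (1.65), COL11A1, a fibrillar collagen (1.61), and ELN, elastin (1.54). The SD within sexes, pooled over both, told RPS4Y1 apart from the rest. This pooled SD was 0.19 for RPS4Y1 and 2.25 for APOE, the highest of these 8 genes. Among the 8, APOE had the highest SD in females alone (2.49). In males alone APOE had 1.97, below MMP1 (2.11), EPB41L3 (2.08) and ELN (1.98).

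**Figure D2:**
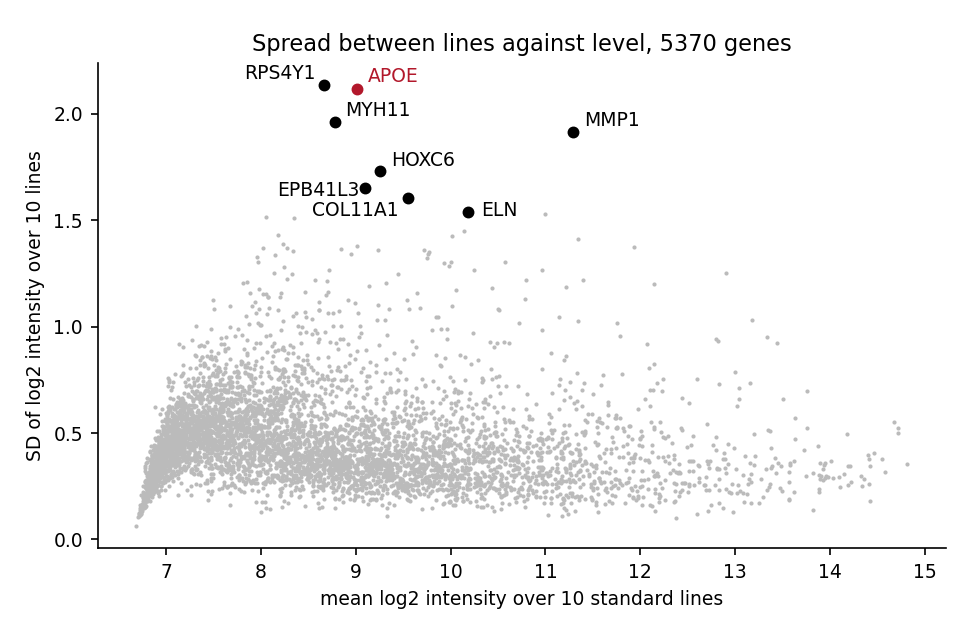
SD of log2 intensity over the 10 standard lines against the mean log2 intensity, with 1 point for each of 5370 genes and the 8 genes of largest SD named. APOE (red) has an SD of 2.12 and lies next to RPS4Y1 at 2.13, while the median gene has 0.43.

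The most variable genes did not share one order of lines. Across the 10 lines, r with APOE was 0.02 for RPS4Y1, -0.09 for MYH11, 0.21 for MMP1, -0.04 for HOXC6, -0.24 for EPB41L3, 0.10 for COL11A1 and 0.24 for ELN. MYH11 and COL11A1 were highest in female line 1 (6163 and 4289), HOXC6 in male line 5 (1679), EPB41L3 in male line 4 (2081) and ELN in male line 1 (4541). MMP1 was highest in female line 4 (12032), as APOE was.

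Which genes follow APOE across the lines was asked by fitting every tested probe set on the log2 intensity of APOE with limma. Of 7332 probe sets, 2 rose with APOE (0.0273%) and 0 fell (0%). At an unadjusted p under 0.05 there were 111 rising and 120 falling, where chance gives 367 in all. Both called probe sets belonged to PTGDS, the gene of prostaglandin D synthase, a secreted enzyme and carrier of small lipophilic molecules.

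The PTGDS probe set of highest mean, whose probes may also match similar transcripts by its design suffix, had an intensity of 11993 in female line 4, 4508 in male line 5 and 1588 in male line 1, the 3 lines highest in APOE, in the same order. Then came female line 1 (1445), female line 5 (1212), female line 2 (1125), male line 2 (934), male line 3 (874), male line 4 (813) and female line 3 (617). The slope was 0.55 ± 0.08 (SE) log2 per log2 of APOE, with r = 0.90, rho = 0.84 and a limma adjusted p of 0.0215. Another PTGDS probe set, 216_at, gave 7585 in female line 4 and 2814 in male line 5, with 323 to 1048 in the other lines, a slope of 0.58 ± 0.09 (SE) and the same adjusted p of 0.0215. The remaining PTGDS probe set was above the floor in only 4 lines, had r = 0.81 and did not pass, with a limma adjusted p of 0.382.

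The PTGDS calls depended on the settings and on single lines. With all 10 lines kept, neither probe set passed under median centring (limma adjusted p of 0.327 for both), without the filter on low values (0.829), without limma's intensity trend (0.0577) or with array weights (0.0837). Neither probe set passed without female line 4 (limma adjusted p of 0.977 for both) or male line 5 (0.146 for both). Without female line 3 the limma adjusted p of the probe set of highest mean was 0.0675, and without female line 5 that of 216_at was 0.0589, so 1 of the 2 was called in each case. With the 2 lines farthest from the median of APOE left out, female line 4 and male line 5, r was 0.74 and 0.67 and the limma adjusted p was 1 for both.

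The genes most like APOE were named by Pearson r over the 10 lines among genes with an SD of at least 0.5 log2, 1 probe set per gene. These r values chose the genes and carry no test of their own. Over all 5369 other genes the median r was -0.03, with 7 genes (0.130%) at 0.8 or above and 10 (0.186%) at -0.8 or below. The count at 0.8 or above was not stable: under median centring, with all 10 lines kept, it was 20, while that at -0.8 or below was 10. With any 1 line left out the counts were 13 to 19 and 12 to 25, but fewer lines widen the range of r by construction. Of the 7 and 10, 2 and 4 had an SD of at least 0.5. Genes just inside and just outside 0.8 were MPPED1 (0.80), a predicted phosphoesterase of low SD, and RGS9 (0.79).

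After PTGDS came NFKB2, an NF-kappa-B subunit (r = 0.89, rho = 0.91). NFKB2 was low throughout: 315 in male line 5, 302 in female line 4, 227 in male line 1 and 164 to 211 in 5 lines, and at the floor in male line 3 and female line 3. Its 3 highest lines were those of APOE, and its 2 lines at the floor were the 2 with APOE at the floor. Its r stayed between 0.87 and 0.91 with any line left out, but its other probe sets gave 0.59 and 0.29. It did not pass the fit (limma adjusted p of 1).

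PDGFRB, the PDGF receptor beta of mesenchymal cells, had r = 0.75 and rho = 0.86. It was highest in male line 1 (6679), followed by male line 5 (5015) and female line 4 (4511), and lowest in male line 3 (1951). These lines were again the 3 highest in APOE, and r was 0.85 without female line 4 and male line 5. Its other probe set had r = 0.65.

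MYLK, myosin light chain kinase of contractile cells, had r = 0.78 with values above the floor in only 4 lines: male line 5 (644), female line 4 (252), male line 1 (207) and female line 2 (119). These are the 4 lines highest in APOE, and MYLK was tested only because the 50% confluence culture was above the floor too. RGS9, a regulator of G protein signalling, had r = 0.79 and PIK3IP1, an inhibitor of PI3 kinase, 0.76. PLXNA3, a semaphorin co-receptor, and RUNX2, the osteoblast transcription factor, had 0.75 each. SLC20A2, a phosphate transporter, and ERCC2, a helicase of DNA repair and transcription, had 0.74 each.

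These genes depended on the top lines to different degrees. ERCC2 ran from 559 to 2120, highest in female line 4, and its r was 0.19 without the 2 farthest lines, while that of RGS9 was 0.77. Of the 10 genes, 5 were highest in female line 4 and 3 in male line 5. Their choice by highest r in these same lines favours this, and the share over all genes was not counted.

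**Figure D3:**
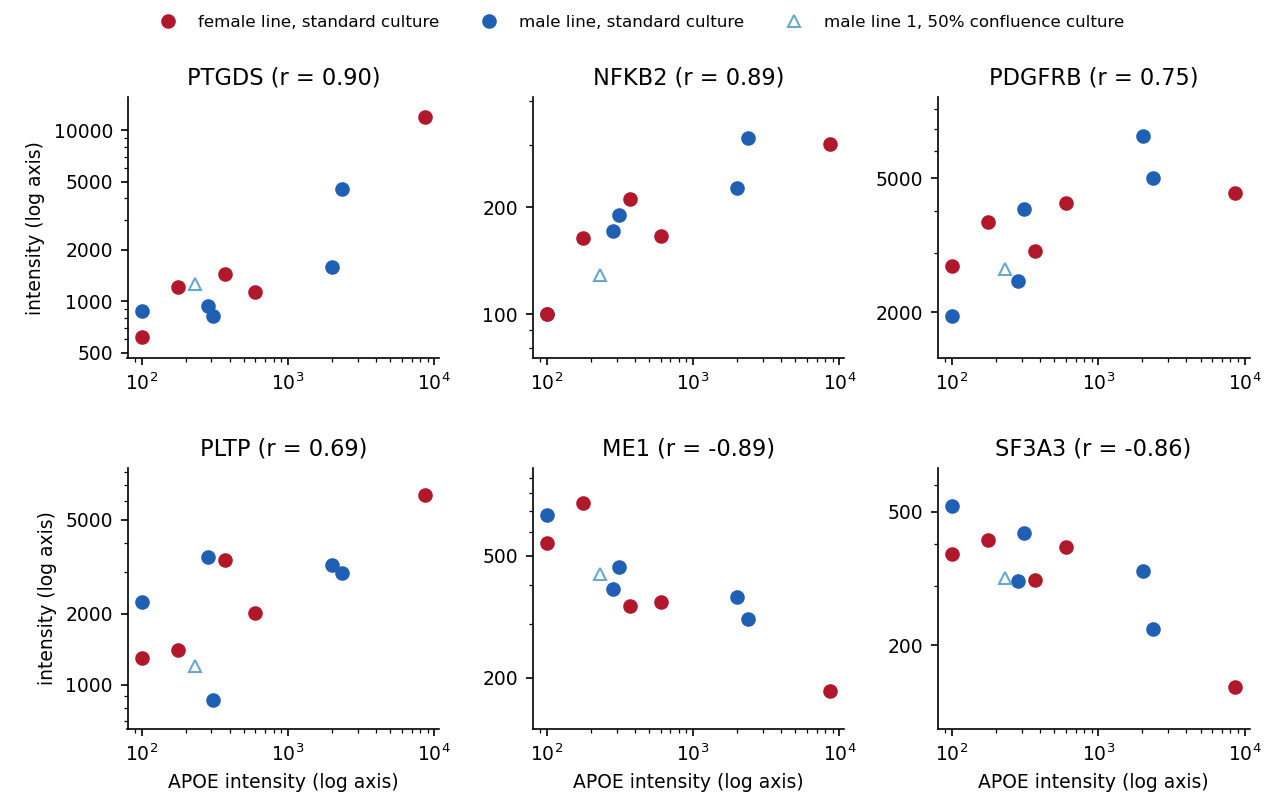
Intensity of 6 genes against the intensity of APOE (both axes log) in the 10 standard lines (red female, blue male) and the 50% confluence culture of male line 1 (open triangle); r is over the 10 standard lines. PTGDS, NFKB2, PDGFRB and PLTP have positive r and ME1 and SF3A3 negative r, and of the 6 only PTGDS passed the fit. For PLTP, male line 2 and female line 1 lie above 2 of the 3 lines highest in APOE.

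At the other end, ME1, the cytosolic malic enzyme that supplies NADPH for lipid synthesis, had r = -0.89 and rho = -0.90. ME1 was 181 in female line 4, 310 in male line 5 and 366 in male line 1, and highest in female line 5 (745), male line 3 (678) and female line 3 (551), the 3 lines lowest in APOE. With any line left out its r stayed between -0.91 and -0.79. SF3A3, a splicing factor subunit, had r = -0.86 and ranged from 150 in female line 4 to 520 in male line 3.

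Then came CBFB, the partner subunit of RUNX factors (-0.81), SLC25A36, a mitochondrial nucleotide carrier (-0.80), NUP214, a nuclear pore protein (-0.79), and DPY19L4 (-0.78). PVR, the poliovirus receptor (-0.77), HSPA1B, an inducible heat shock protein with a near-identical copy that its probes may also read, and CYB561D2, a cytochrome b561 family member (-0.76 each), and IDH1, cytosolic isocitrate dehydrogenase (-0.74), completed the 10. None passed the fit (limma adjusted p of 1 for each). In none of the 10 was any of its 3 highest lines among the 3 highest of APOE. The choice by lowest r in these same lines favours this, and the share over all genes was not counted. Over both ends, 13 other tested probe sets of these genes existed, and 12 had an r of the same sign. Taken in that sign, their r ran from -0.01 to 0.89. Among the weak ones were 0.01 for PVR, -0.11 for NUP214, 0.32 for SLC20A2 and 0.23 for the weakest of ERCC2.

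The other genes past 0.8 in size varied less, with an SD of at most 0.47 among the positive ones. They were NPRL3 (0.89), IL2RG (0.87), DUSP10 (0.87), MPDU1 (0.85) and MPPED1 (0.80) on the positive side. On the negative side they were SGMS1 (-0.87), VPS26C (-0.85), DHRS7 (-0.84), NDUFS1 (-0.83), TMEM131 (-0.83) and CMTR1 (-0.80).

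The pathways around apolipoprotein E were read from gene lists, each described by its counts and its median r beside 47.0% positive and a median of -0.03 over all genes. Of all genes, 4.75% had r above 0.5 and 5.77% below -0.5. Of the lists, only the pro-inflammatory fibroblast genes held a gene that passed the fit, PTGDS. All lists were read in the same 10 lines.

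Among the other apolipoproteins and lipoprotein enzymes, 6 of 19 on the array were tested, 3 with positive and 3 with negative r, with a median of 0.01. PLTP, the phospholipid transfer protein, had the highest r, 0.69 (rho = 0.53), and 0.43 without the 2 farthest lines. It was highest in female line 4 (6392), but male line 2 (3469) and female line 1 (3380), both far lower in APOE, lay above male line 1 (3233) and male line 5 (2980). The lowest value was 866 in male line 4. CLU, clusterin, another secreted apolipoprotein, had 0.38 and was highest in female line 4 (1939), but its r was -0.35 without the 2 farthest lines. LPL, lipoprotein lipase, had -0.20, PON2, a paraoxonase, -0.30, LCAT, the cholesterol-esterifying enzyme of plasma, -0.04 and APOM 0.05.

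Most apolipoproteins were near or at the floor. APOA1, APOF and APOH were at the floor in all lines, and APOB (up to 105), APOC1 (up to 103) and APOA4 (up to 116) in all lines but 1. APOD was at the floor in 9 lines and 598 in female line 4, and APOC3 reached 189 there.

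Receptors for apolipoprotein E were present in part. LRP1, the large endocytic receptor, was above the floor in all 10 lines, from 891 in male line 4 to 3236 in female line 2 (r = 0.29, rho = 0.64). LRPAP1, its chaperone, ran from 1095 to 2722 (0.39) and SCARB1, the HDL receptor, from 288 to 677 (0.08). LRP4 (0.47), SORL1 (0.34) and LRP5 (0.25) were positive, and LRP6 (-0.14) and SCARB2 (-0.09) negative. VLDLR, LRP2, CD36, OLR1 and MSR1 were at the floor in all lines. Of 8 tested receptors, 6 had positive r, with a median of 0.27 that was 0.08 without female line 4 and male line 5.

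The heparan sulfate proteoglycans and their enzymes, to which apolipoprotein E binds, had positive r in 10 of 12, with a median of 0.18. EXT1, a heparan sulfate polymerase, had 0.73 (1732 in male line 4 to 4396 in female line 4), and SDC4, syndecan 4, had 0.49. GPC3, glypican 3, had 0.29.

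The sterol efflux and LXR genes had positive r in 7 of 10, with a median of 0.07. They were led by PLTP (0.69) and FASN, fatty acid synthase (0.55; 1023 to 2092). SREBF1, the lipogenic master factor, had 0.22, the LXR partners RXRB and RXRA 0.12 and 0.02, and ABCA1, the cholesterol efflux pump, -0.11 (203 to 535). NR1H3, which encodes LXR alpha, was above the floor in 4 lines and highest in female line 4 (184). ABCG1, a further efflux pump, was at the floor in all lines.

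Cholesterol synthesis genes were split, with 10 of 18 positive and a median of 0.02, between NSDHL (0.63) and GGPS1 (-0.48). ACLY, which makes cytosolic acetyl-CoA, had -0.47. Lysosomal and lipid storage genes had positive r in 10 of 14 with a median of 0.05. Among these PSAP, prosaposin, had 0.61 and HEXA, a hexosaminidase subunit, 0.53, while PLIN3, a lipid droplet protein, had -0.53.

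Of 12 tested transcription factors described as acting on APOE, 9 had positive r and the median was 0.07. TFAP2A, AP-2 alpha, had the highest r, 0.49 (100 to 1563, highest in male line 5), but 0.06 without the 2 farthest lines. NR2F1 had 0.37, and PPARG, the adipogenic nuclear receptor, had -0.37 and was lowest in female line 4 (111). CEBPB (0.09), RELA (0.09), USF2 (0.10), JUN (0.06) and YY1 (-0.26) were all measured above the floor in at least 9 lines.

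Genes beside APOE on the chromosome had r of both signs. Neighbours were taken as the 24 nearest coding genes in the bonobo assembly NHGRI_mPanPan1-v2.0_pri, used for order only. Of these, 9 were on the array by name and 8 were tested, 5 with positive and 3 with negative r, with a median of 0.08. TOMM40, a mitochondrial import pore on one side of APOE, had r = 0.06 (298 to 1329), and NECTIN2, an adhesion protein, 0.16. APOC1, on the other side, was between 100 and 103. CLPTM1 had 0.10, CLASRP 0.36, RELB 0.42, PPP1R37 -0.28, BCAM -0.32 and PVR -0.77 (0.01 for its other probe set). A list of genes known from the wider region leaves out PVR and PPP1R37 and adds ERCC2 (0.74) and ERCC1, another DNA repair gene (0.22). This list had 7 of 8 positive with a median of 0.19, and 0.10 without the 2 farthest lines.

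Fibroblast state lists were read in the same way. Pro-inflammatory fibroblast genes had positive r in 7 of 8 with a median of 0.35, and 0.23 without the 2 farthest lines. IL6 and CCL2, an inflammatory cytokine and a monocyte chemokine, had 0.51 each. CCL2 was highest in female line 4 (1496), and its r was -0.21 without the 2 farthest lines. CXCL1, a neutrophil chemokine, was above the floor in 2 lines and 960 in female line 4. Mesenchymal fibroblast genes had positive r in 6 of 7 (median 0.27), with MFAP4, a microfibril protein, at 0.57 and TNC, tenascin C, at 0.41. Secretory-reticular genes had positive r in 5 of 8 (median 0.06) and secretory-papillary genes in 2 of 4 (median 0.09).

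Mitosis genes had mostly negative r, 26 of 27, with a median of -0.20, and -0.40 without the 2 farthest lines. These genes shared much of their order of lines, so the 27 are not independent observations. BUB1, a spindle checkpoint kinase, had -0.68, BIRC5, survivin, -0.55 and BUB1B -0.46. All 3 were highest in female line 3, which was at the floor for APOE. Some others were instead highest in male line 5, which had 2357 for APOE, such as UBE2C (4557), named after its value was seen. Many of the 27 were lowest in female line 1, which had 372 for APOE. None of the 27 passed the fit. Growth arrest and quiescence genes had positive r in 9 of 16 (median 0.08), led by FOXO3 (0.68) and GADD45B (0.56).

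Smooth muscle contractile genes had positive r in 9 of 12 (median 0.31). After MYLK came SMTN, smoothelin (0.53), and TAGLN, transgelin (0.52; 7213 in male line 3 to 32430 in male line 5). Fibroblast identity genes had positive r in 12 of 19 (median 0.23), from PDGFRB (0.75) to COL1A2, a type I collagen chain (-0.49), and PDGFRA (-0.47).

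**Figure D4:**
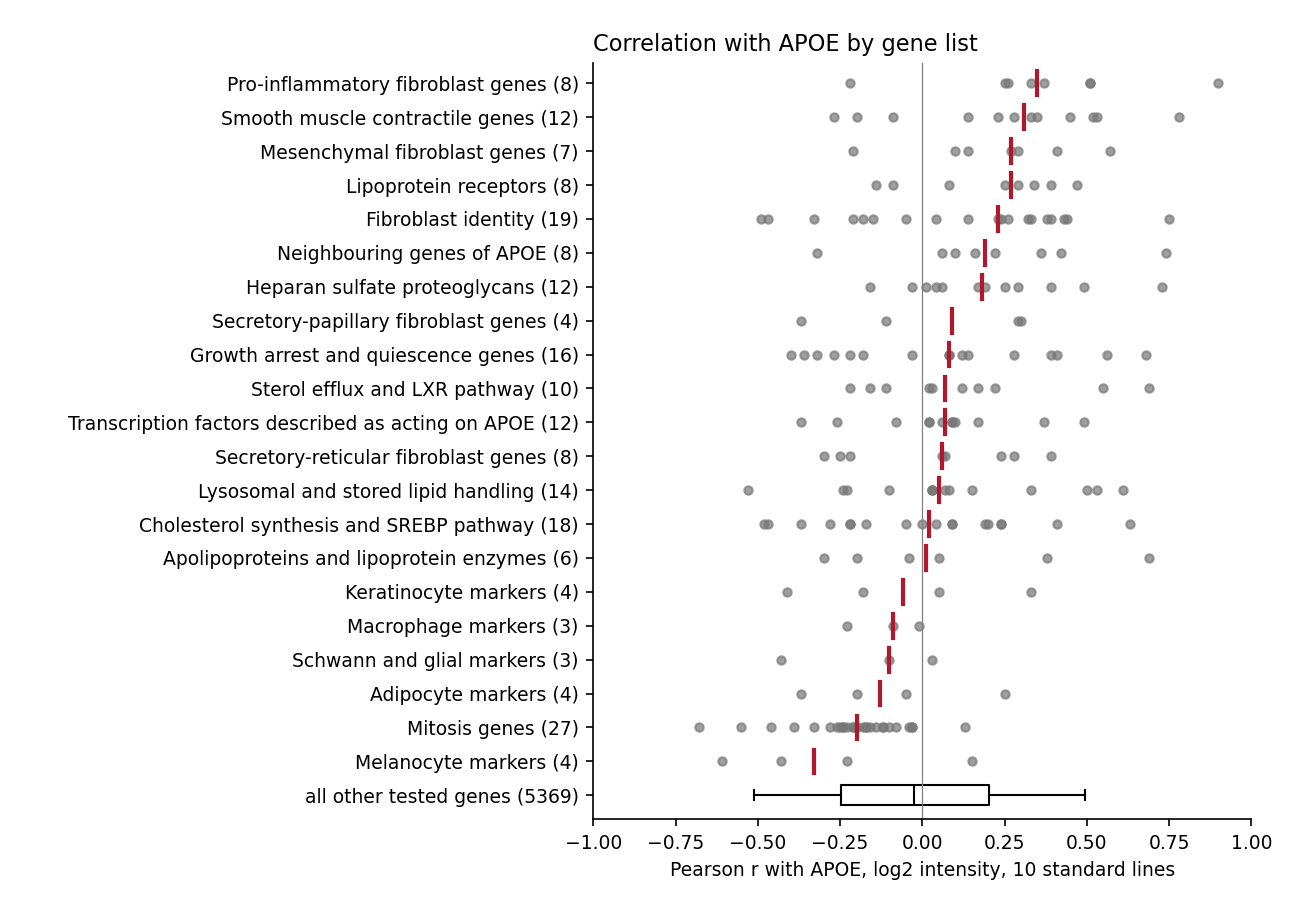
Pearson r with APOE (log2 intensity, 10 standard lines) for each tested gene of the lists with at least 3 tested genes (grey points, number in brackets), with the list median as a red bar; the box at the foot shows the quartiles of all other tested genes with whiskers at the 5th and 95th percentiles. The points of most lists spread on both sides of 0, and 26 of 27 mitosis genes, which are not independent of each other, lie below it.

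Markers of macrophages, a known source of apolipoprotein E, were mostly at the floor, with at most 5 of 15 above it in any culture. Of these 15, TYROBP, FCER1G, ITGAM, MARCO, C1QB and SPI1 were at the floor in all 11 cultures, and 3 were tested, with r from -0.23 to -0.01. CD14, a monocyte receptor above the floor in too few arrays to be tested, was highest in the 2 lines highest in APOE, male line 5 (323) and female line 4 (279), and at the floor in 6 lines. CD163, a scavenger receptor also not tested, was highest in female line 4 (211). These were named after their values were seen. Their summed intensity was 1660 to 2232 in males and 1679 to 2300 in females, where all at the floor would give 1500. It was 2300, the highest, in female line 4, 2021 in male line 5 and 1660, the lowest, in male line 1. The sum had r = 0.12 with APOE. The summed markers of adipocytes had r = 0.03, of melanocytes -0.39, of Schwann cells and glia -0.03, of endothelium 0.39 and of keratinocytes 0.12. Of 9 endothelial markers only ENG, endoglin, was tested, with r = 0.38. ENG ran from 1495 to 3574 in the standard lines, while every other endothelial marker was at most 149. The endothelial sum, most of it ENG, was 2947 to 4031 in females and 2337 to 4406 in males. It was highest in male line 1, where all at the floor would give 900. The melanocyte sum was 800 to 1153 in females and 718 to 953 in males, with 700 as the floor. Their part in the level of APOE was not tested.

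The state of the culture at harvest was compared within male line 1, with 1 array each and so no test. APOE had an intensity of 2010 in the standard culture and 230 in the 50% confluence culture. That is a log2 difference of -3.13, or 8.74-fold lower. Of the 4497 genes measured over the floor in each of these cultures, 210 (4.67%) were over 2-fold lower and 212 over 2-fold higher, and the decrease of APOE was rank 2, after MMP1 (7243 and 390).

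The difference between the 2 cultures of 1 animal was within the range seen between standard lines of different animals. Of 45 pairs of standard lines, 13 differed more in APOE, and the median pair differed by 1.97 log2. APOE was chosen for its wide spread between these lines, so this range is no independent measure for the difference between cultures. The 50% confluence culture took place 8 among the 11 cultures, with 3 standard lines below it. Array quality also differed: the ACTB 3' to 5' ratio was 1.42 in the standard and 0.67 in the 50% confluence culture, and the ribosomal control 100 and 2611. The part of these in the difference was not tested.

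The 10 genes with decreases nearest in rank to APOE are given by their intensity in the standard and then the 50% confluence culture. After MMP1 and APOE came DENND2B (19720 and 2505), MFAP4 (2063 and 268), COL4A1, a basement membrane collagen (2491 and 346), and IL1RL1, the interleukin 33 receptor (1600 and 223). ACAN, aggrecan (813 and 135), TNC (2503 and 427), PLPP3, a lipid phosphatase (11416 and 2136), SOD3, extracellular superoxide dismutase (3464 and 694), and GPC3 (2166 and 443) followed. Across the 10 lines their r with APOE ran from -0.14 for ACAN to 0.59 for SOD3, with 0.57 for MFAP4.

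Genes that followed APOE across other lines were then read in male line 1, whose arrays had no part in their r. The 50 genes of highest r over the 9 other lines had r from 0.59 to 0.95. Of these, 33 were above the floor in both cultures, and 22 of the 33 (66.7%) were lower at 50% confluence, with a median difference of -0.20 log2. A further 10 were above the floor only in the standard culture and 4 only in the 50% confluence culture. Over all 5369 other tested genes these counts were 363 and 336, and over the 1821 of SD at least 0.5 they were 152 and 122. Of the 10, RGS9 and RUNX2 passed the filter only through the standard culture of male line 1, so they had to be above the floor there. The 50 of lowest r (-0.91 to -0.59) had 43 above the floor in both, of which 19 (44.2%) were lower, with a median of 0.23.

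All other tested genes were 49.7% lower with a median of 0.00, and those of SD at least 0.5 were 48.7% lower with a median of 0.01. The filter on low values did use the arrays of male line 1, and 4 of the 50 genes of highest r were above the floor in under 5 of the 9 other lines. With the filter and the probe set of each gene taken from the 9 other lines alone, 23 of 33 genes of highest r (69.7%) were lower with a median of -0.24, and 21 of 45 of lowest r (46.7%) with a median of 0.21. The median for the genes of highest r was small beside the -3.13 of APOE and not stable: it was 0.15 without female line 4, and between -0.22 and -0.04 without any other of the 8 lines.

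**Figure D5:**
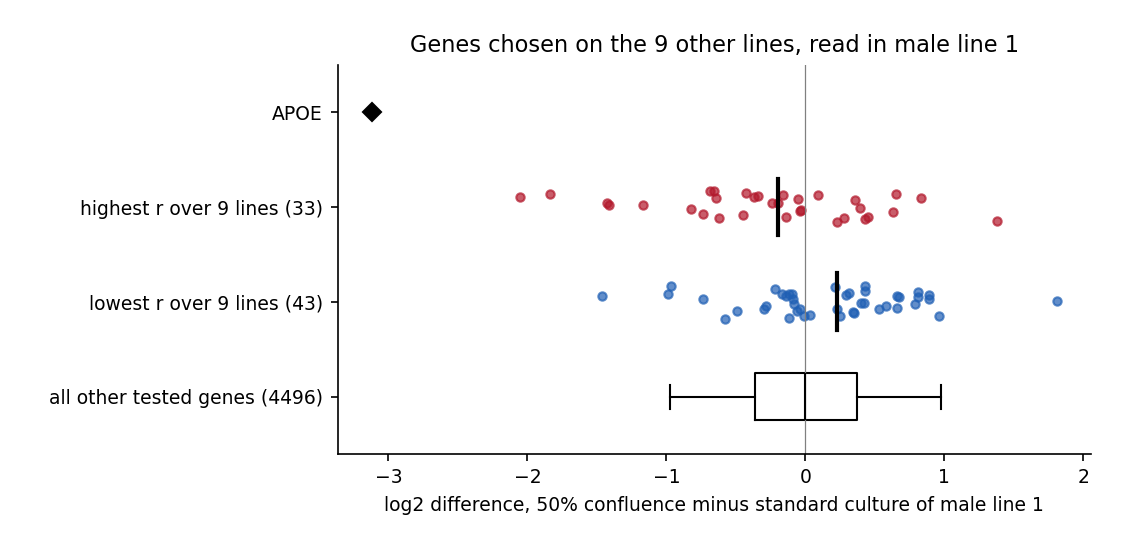
Log2 difference between the 50% confluence and the standard culture of male line 1 for APOE (diamond) and for the genes of highest (red) and lowest (blue) r with APOE over the 9 other lines, black bars marking medians; the box shows the quartiles of all other tested genes with whiskers at the 5th and 95th percentiles. The medians are -0.20 and 0.23, against -3.13 for APOE.

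Single genes with positive r are given by their intensity in both cultures. PTGDS had 1588 in the standard and 1256 in the 50% confluence culture, NFKB2 227 and 129, and PDGFRB 6679 and 2688. PLTP (3233 and 1199), C1R, a complement protease (1186 and 331), PCOLCE, a collagen maturation protein (3636 and 1371), MAFF, a transcription factor (1560 and 693), and OLFML2A (442 and 107) were each over 2-fold lower. These last 5 were the only ones over 2-fold lower among the 33 (15.2%), and were named after their values were seen. The share was 4.65% of all other tested genes and 8.73% of those with an SD of at least 0.5. SLC20A2 (430 and 763) and PIK3IP1 (218 and 342) were higher. The only 1 of the 33 over 2-fold higher was MYLK (207 and 537), which reached the filter only through its value at 50% confluence and so had to be high there. Outside these genes, ABCA1 (203 and 458) was higher at 50% confluence, while LRP1 (2393 and 2355) was nearly equal.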

How the data were processed

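Total RNA of 11 fibroblast cultures was measured on an Affymetrix human array. The deposited numbers are linear intensities, 1 per probe set, and the sources used here do not give how the authors summarised probes or scaled arrays. The probes were designed on human sequence, so a bonobo mismatch can reduce a signal. Values were raised to a floor of 100 and log2 was taken. Control probe sets (67) were left out, and 7333 above the floor in at least 5 of 11 arrays were tested. In the 2016 probe annotation 10943 probe sets had 1 gene symbol, 545 had several and 1070 had none. Only those with 1 were named. Each gene was represented by its probe set of highest mean log2.

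Models were fitted with limma 3.58.1 (R 4.3.3), with eBayes allowing an intensity trend, over the 10 standard lines with sex and age, and separately with log2 APOE as covariate. P-values are two-sided, Benjamini-Hochberg adjusted over all probe sets tested, with a threshold of 0.05. With 1 culture per animal, they do not separate animals from cultures. Permutation p-values of correlations used 100000 draws. The number of arrays limits the precision.

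The gene, the lists and the tests were chosen with earlier results of these data known. Named genes were the 10 of highest and 10 of lowest r with APOE (SD at least 0.5), those passing the fit, members of 5 lipid, regulator and neighbour lists, 2 to 4 members of largest absolute r of other lists, the genes next in SD, and the 10 nearest in rank of harvest difference. Alternatives were quantile normalization, median centring, a floor at the 60th percentile, a pseudocount of 50, no filter, no trend, array weights, other covariates, Spearman rho, lists of 25 or 100 genes, and leaving out lines. Leaving out the 2 farthest lines in the fit on APOE, and the filter taken from 9 lines, were added after seeing the data. The fit on APOE was tested on simulated data of 7332 probe sets. It recovered 80% of 100 probe sets with a planted slope of 0.5 and 100% of 100 with a slope of 1, with 9 false calls. The setting differed from the data, where only 2 probe sets passed. With many planted slopes the Benjamini-Hochberg adjustment is less strict, and the simulated noise was independent between probe sets. These shares therefore do not carry over to the data. Smaller slopes were not planted. Among the genes named by their r with APOE, only PTGDS had a fitted slope above 0.5. The slope was 0.33 for MYLK, 0.24 for NFKB2 and -0.25 for ME1. The share of genes with such smaller slopes that the fit would miss is therefore not known.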

Additional observations from a re-analysis of the deposited data

Results flagged for a closer look

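Of 66 groups of values examined, 7 had a line far from the others by Dixon's criterion, and chance flags about 1 in 20. Female line 4 stood apart among the female lines in PTGDS, with 11993 for the probe set of highest mean (others 617 to 1445) and 7585 for 216_at (others 323 to 737). In MYLK female line 4 had 252 among the female lines (others 100 to 119), and male line 5 had 644 among the 10 lines (others 100 to 252). Female line 4 was low in SF3A3, with 150 among the female lines (others 313 to 411), and in CYB561D2, with 111 among the 10 lines (others 229 to 487). Male line 3, at the floor for APOE, was also at the floor in PIK3IP1 with 100 among the male lines (others 218 to 253). Of the 7, 5 concern female line 4, the line highest in APOE, and the genes had been chosen for their relation to APOE.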

How the results depend on the processing

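Of 243 results under alternative settings, 171 kept their direction and side of the threshold or stayed near their value. Results far from the threshold at the start, such as NFKB2, ME1 and the falling probe sets, could hardly change side. This share therefore does not measure stability. The SD of APOE was 1.66 without female line 4 and up to 2.25 without another line, and its difference between the cultures of male line 1 stayed negative under each scaling, floor and pseudocount. The sex difference was -0.02 under quantile normalization and -0.62 to 1.09 with 1 line left out, and the age slope -0.07 to 1.42. The 2 probe sets called rising became 0 under median centring, with no filter, no intensity trend, array weights or the 2 farthest lines left out, 1 with sex and age as covariates or without the lines at the APOE floor, and 0 to 3 with 1 line left out. The PTGDS adjusted p was then 0.327 (median centring), 0.829 (no filter), 0.0577 (no trend) and 0.0837 (array weights) for both probe sets. Falling probe sets stayed at 0 with each line left out. Genes of r at least 0.8 numbered 11 under quantile normalization, 20 under median centring, 12 by Spearman rho, 30 without the floor lines, 21 without the 2 farthest, and 13 to 19 with 1 line left out. Genes of r at most -0.8 numbered 31, 27 and 12 to 25 in the last 3 of these. The median of the genes of highest r in male line 1 was -0.06 under median centring, 0.26 by Spearman rho, -0.04 with 25 genes, and -0.22 to 0.15 with 1 line left out; that of lowest r was 0.15 with the floor at the 60th percentile. The cause of these changes was not tested, except that fewer lines widen the range of r by construction.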
